A study of Homo sapiens with 24 samples.

Results

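The NF-κB subunits and feedback targets followed here are 10 genes, NFKB1, NFKB2, RELA, RELB, BCL3, NFKBIA, NFKBIE, TNFAIP3, BIRC2 and BIRC3, taken by symbol from the 23207 genes of the series. They were read in all 24 libraries of LNCaP, a hormone-sensitive human prostate cancer cell line with luminal features. A lentivirus had delivered either a scrambled, non-targeted hairpin RNA (NTC) or a hairpin against SIRT1, a deacetylase of histones and of RELA. All groups, the controls included, share the virus dose (multiplicity of infection 10), puromycin selection (1 µg/ml) and puromycin in the growth medium (0.5 µg/ml). There were 8 groups of 3 libraries. NTC and shSIRT1 cells were grown in medium with fetal bovine serum (FBS), which contains androgens. NTC cells and a SIRT1 knockdown labelled 10 spent 48 h in FBS medium and then 24 h in charcoal-stripped serum (CSS), which is poor in androgens. For the last 24 h those cells received vehicle (VC), the androgen dihydrotestosterone (DHT) at 1 nM, or the same DHT together with the androgen receptor antagonist enzalutamide at 10 µM. The FBS set asked for SIRT1 target genes, and the stripped-serum set asked about SIRT1 in prostate cancer progression.

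The labels describe the knockdown lines as stable clones and leave unstated how the hairpins of shSIRT1 and 10 relate, so loss of SIRT1 and a difference between clones cannot be told apart. They also do not say that the libraries of a group came from separate cultures. The p-values then measure only the spread between these libraries, which may be technical.

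NF-κB is a family of dimeric transcription factors held inactive in the cytoplasm by inhibitor proteins of the IκB family. In the canonical pathway, signals from cytokine or innate immune receptors activate the IKK kinase complex, the inhibitor is degraded and dimers with RELA enter the nucleus. In the non-canonical pathway, the kinase MAP3K14 drives the processing of the NFKB2 precursor, and RELB-containing dimers are released. Many of the target genes encode brakes on the same pathway, among them NFKBIA, NFKBIE and TNFAIP3, and the subunit genes NFKB1, NFKB2 and RELB are themselves targets, so the family forms feedback loops.

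SIRT1 stood at 40.0, 38.0 and 36.8 counts per M counts (CPM) in the NTC libraries in FBS and at 8.43, 8.68 and 7.21 CPM in the shSIRT1 libraries. In stripped serum it ranged from 46.6 to 61.4 CPM in the 9 NTC libraries and from 13.1 to 21.4 CPM in the 9 knockdown libraries, so no library went against its label. Library size was 11.9 to 14.2 M counts (FBS) or 25.2 to 35.1 M (CSS), and all 10 genes passed the filter on low counts in both sets. All 10 luminal prostate markers were at or above 1 TPM (a deposited unit that divides by transcript length) in every library. Leukocyte markers PTPRC and CD14 reached at most 0.15 and 0.41 TPM, KRT5 of basal cells 0.08 TPM and DCN of fibroblasts 0.15 TPM. The markers of other cells that passed 1 TPM in some library were VIM at 7.33 to 45.5 TPM, LYZ at 1.43 to 9.88 TPM, COL1A1 at 3.59 to 8.50 TPM, and PECAM1, VWF and KRT14 at up to 2.73, 1.64 and 1.56 TPM. In stripped serum the summed basal and mesenchymal list and the fibroblast list overlapped between NTC and knockdown under each treatment. The summed endothelial list was lower in the knockdown without overlap under vehicle (1.08 to 1.43 and 0.60 to 0.92 TPM), DHT (1.43 to 1.65 and 0.92 to 1.09) and DHT with enzalutamide (0.97 to 1.14 and 0.53 to 0.76), with its defining marker CDH5 at no more than 0.01 TPM. Under vehicle the luminal list (2792 to 2955 and 2968 to 3243 TPM) and the leukocyte list (at most 1.81 TPM in NTC and 1.93 TPM in the knockdown) were higher in the knockdown without overlap. The part of these lists in the results was not tested. In FBS, libraries 1 and 2 of each group lay close together (1.55 and 1.60 chi-square per gene) and library 3 stood apart (8.89 to 9.39), so the FBS results are given with and without the libraries numbered 3. In stripped serum NTC library 1 of each treatment stood apart (9.78 or more, beside 3.79 to 4.34 between libraries 2 and 3). Knockdown library 2 under DHT did too (38.6 and 22.4, beside 12.5 between the others). So did knockdown library 1 under DHT with enzalutamide (15.2 and 9.73, beside 4.76 between the others). Calls lost without any such library are given beside each gene.

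The 10 genes spanned a wide range of levels per transcript length. NFKBIA, which encodes IκBα, was highest in every group and ranged from 68.7 to 162 TPM over the 24 libraries. The subunit genes NFKB1 (27.0 to 76.9 TPM), RELA (38.6 to 50.1 TPM) and NFKB2 (28.8 to 47.3 TPM) followed, with BIRC2 at 25.9 to 41.1 TPM. BIRC3 ranged from 2.08 to 25.6 TPM, and RELB (1.09 to 11.9 TPM), TNFAIP3 (1.82 to 9.95 TPM), NFKBIE (4.18 to 10.8 TPM) and BCL3 (5.60 to 10.7 TPM) were the other low genes. As the ratio of the highest to the lowest library, the span among the 18 stripped-serum libraries ran from 1.29 for NFKB2 and 1.30 for RELA to 1.87 for RELB and TNFAIP3 and 1.91 for BCL3. Among the 6 FBS libraries it ran from 1.11 for BIRC2 and 1.14 for RELA to 1.92 for BIRC3 and 2.36 for RELB. FBS and CSS libraries differ in processing as well as in serum, so levels were not tested between the sets.

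**Figure D1:**
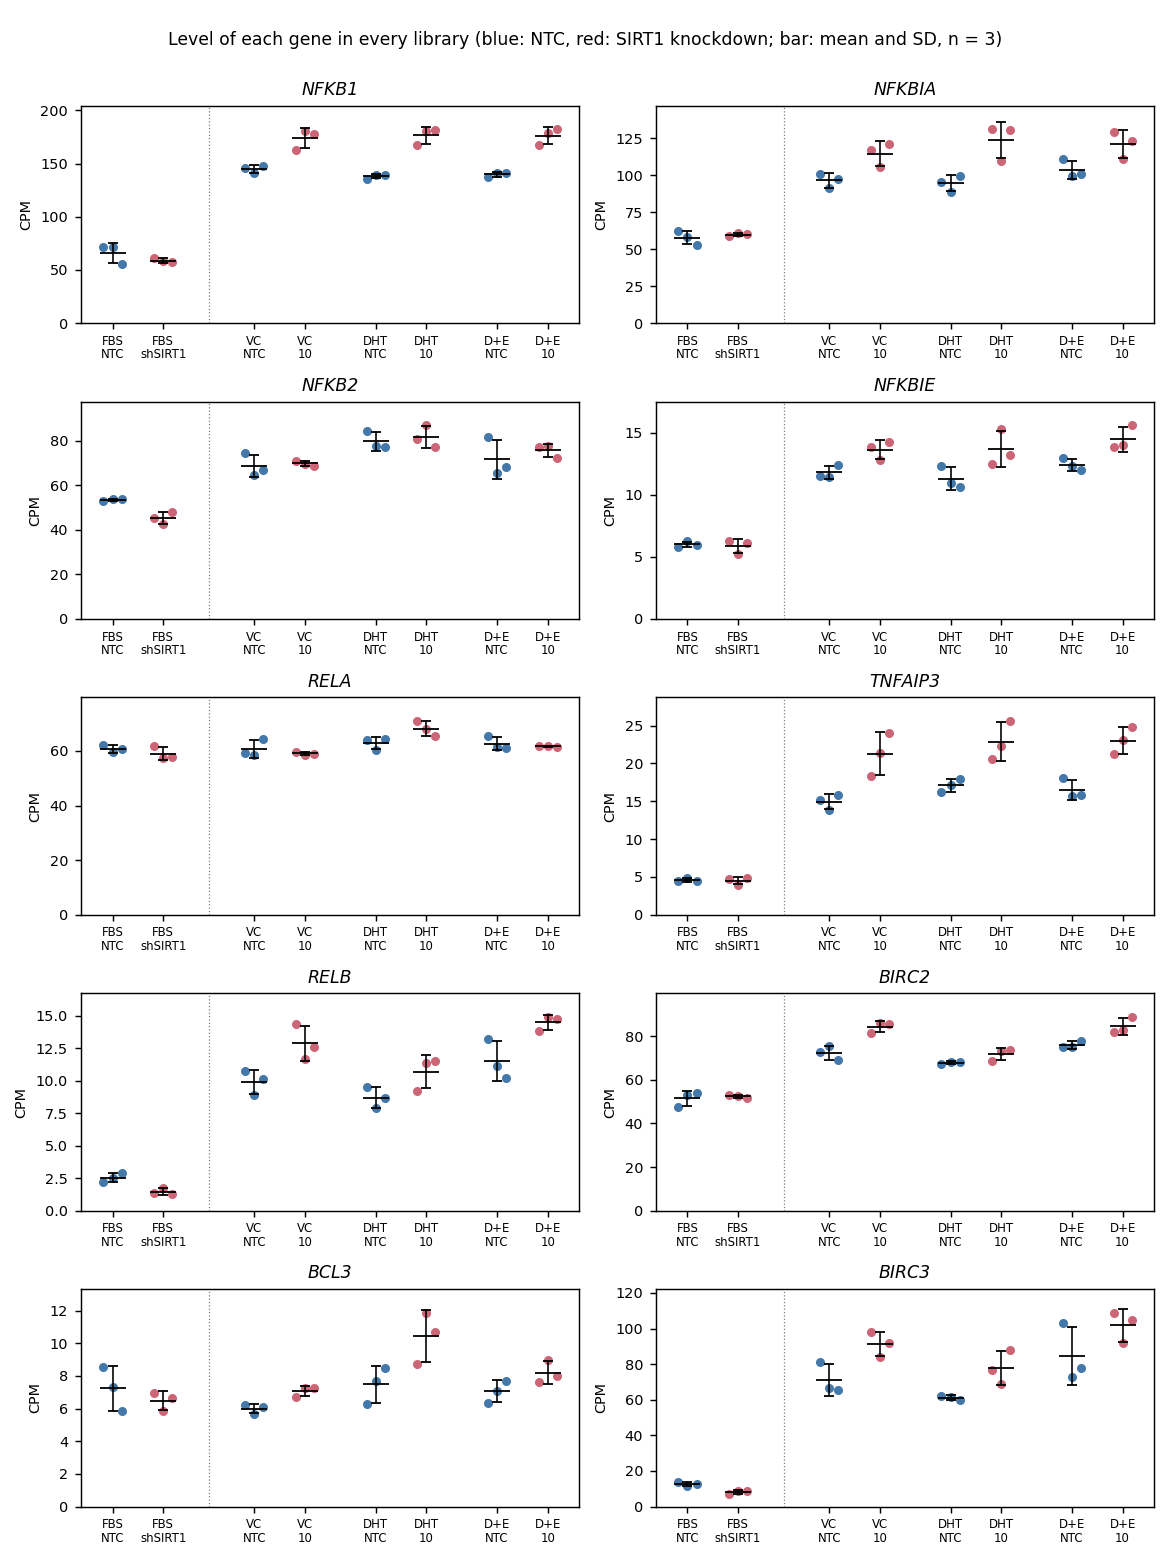
Level of each of the 10 genes in counts per M counts (CPM, vertical axis from 0) in every library of the 8 groups (horizontal axis; VC, vehicle; D+E, DHT with enzalutamide; 10, the knockdown in stripped serum), with points for the 3 libraries and bars for mean and SD. The dotted line parts the FBS set from the stripped-serum set, whose levels were not compared. In stripped serum the red knockdown points of NFKB1 (163 to 183 CPM) lie above all blue NTC points (136 to 148 CPM).

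RefSeq promoter entries (build GRCh38.p14) were matched for 8 of the 10 genes, in 13 windows of 250 bases before a transcript start. RELB and NFKBIE are named only. A search of both strands for the NF-κB consensus of 10 bases found at least 1 match for NFKB1, NFKB2, NFKBIA, TNFAIP3 and BIRC3, and no match in the windows of RELA, BIRC2 and BCL3. Over all 35116 windows of that length, 9.961% held at least 1 match and 1.72% held at least 2. These shares count windows, not genes. The 10 genes were chosen as NF-κB subunits and feedback targets, so the shares are no test of them. Counted by window, a match lay in 1 of 2 windows of NFKB1 and 2 of 3 of NFKB2. NFKBIA, TNFAIP3 and BIRC3 had 1 window each, with a match. RELA and BIRC2 had 2 windows each and BCL3 had 1, all without a match. The windows of 4 genes that hold a match and were called in knockdown 10 against NTC are shown, so they were picked by both traits. BIRC2 and BCL3, without a match, were also called against NTC, and NFKB2, with matches, was not. A match is a description of the window, not a measured binding site. The lines give the gene strand 5′ to 3′ with the matches in capitals, which read along either strand; bases in the gene's own annotated exons are left out, except that the 22 bases shown for TNFAIP3 lie in an annotated exon of it.
NFKB1, chr4:102501109-102501328, plus strand: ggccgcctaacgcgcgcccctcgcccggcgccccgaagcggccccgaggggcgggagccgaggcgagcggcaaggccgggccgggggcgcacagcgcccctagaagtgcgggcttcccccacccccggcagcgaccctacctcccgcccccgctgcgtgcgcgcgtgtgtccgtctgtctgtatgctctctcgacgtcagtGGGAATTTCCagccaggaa
NFKBIA, chr14:35404750-35404999, minus strand: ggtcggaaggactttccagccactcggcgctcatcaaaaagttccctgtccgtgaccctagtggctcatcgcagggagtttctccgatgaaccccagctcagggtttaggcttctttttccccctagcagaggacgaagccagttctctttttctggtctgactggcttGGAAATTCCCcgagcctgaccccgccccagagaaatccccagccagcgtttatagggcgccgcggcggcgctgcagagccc
BIRC3, chr11:102317234-102317449, plus strand: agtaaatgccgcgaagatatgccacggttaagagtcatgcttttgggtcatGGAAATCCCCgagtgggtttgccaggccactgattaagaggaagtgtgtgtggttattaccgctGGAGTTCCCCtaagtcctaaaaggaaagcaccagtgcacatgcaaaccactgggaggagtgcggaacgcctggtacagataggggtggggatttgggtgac
TNFAIP3, chr6:137867192-137867213, plus strand: GGAAAGTCCCgtGGAAATCCCC
The first base of the match lies 49 bases before the start in NFKB1 and 81 in NFKBIA. In BIRC3 the matches lie 199 and 135 bases before it, and in TNFAIP3 67 and 55. The windows of NFKB2 held 5 matches, some of them overlapping, in 2 of its 3 windows.

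In stripped serum, several of the 10 genes were higher in knockdown 10 than in NTC under all 3 treatments, and none was called lower. Calls rest on edgeR's quasi-likelihood test, at an adjusted p (Benjamini-Hochberg, over all genes tested) under 0.05. Under vehicle 6 rose (NFKB1, RELB, NFKBIA, TNFAIP3, BIRC2 and BIRC3), under DHT 7 rose (NFKB1, RELB, BCL3, NFKBIA, NFKBIE, TNFAIP3 and BIRC3), and under DHT with enzalutamide 5 rose (NFKB1, RELB, NFKBIA, TNFAIP3 and BIRC2). Among all 14558 genes tested, 15.5% were called higher and 19.1% lower (34.6% in all) under vehicle, 19.5% and 23.5% (43.0%) under DHT, and 15.4% and 19.2% (34.6%) under DHT with enzalutamide. The median log2 change of the 10 genes was 0.25, 0.33 and 0.22, beside -0.00448, -0.00161 and 0.00187 over all genes. The sizes were modest, with called changes from 1.11-fold to 1.42-fold. In bulk RNA, fewer cells of a type and less RNA per cell cannot be told apart.

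NFKB1, the gene of the subunit precursor that partners RELA, had the lowest adjusted p of the 10 under each treatment. Under vehicle it was at 145, 141 and 148 CPM in NTC and at 163, 181 and 178 CPM in the knockdown. Under DHT the values were 136, 139 and 139 against 168, 180 and 182 CPM. Under DHT with enzalutamide they were 137, 141 and 141 against 167, 179 and 183 CPM. The 9 knockdown libraries lay above the 9 NTC libraries without overlap. The log2 changes were 0.26 ± 0.05 (SE; adjusted p = 0.000531), 0.35 ± 0.05 (2.1e-05) and 0.33 ± 0.05 (6.21e-05), and each call held in all 13 alternative settings tried.

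RELA, the main transactivating subunit of the canonical pathway, was called in none of the knockdown comparisons. Its levels under vehicle were 59.3, 58.4 and 64.5 CPM in NTC and 59.5, 58.6 and 59.1 CPM in the knockdown, with a log2 difference of -0.04 ± 0.05 (adjusted p = 0.573). Under DHT the knockdown libraries were at 71.1, 68.1 and 65.5 CPM, each above the NTC libraries at 63.9, 60.2 and 64.3 CPM, with a difference of 0.12 ± 0.05 that did not pass the test (adjusted p = 0.0648). With the replicate number as a block, the DHT difference of RELA passed (adjusted p = 0.0396). NFKB2, the gene of the non-canonical precursor, overlapped between the groups under each treatment, with log2 differences of 0.03 to 0.08 and adjusted p of 0.474 to 0.824. Without NTC library 1, the enzalutamide difference of NFKB2 passed (0.19, 0.0489).

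RELB, the subunit of the non-canonical pathway, rose under all 3 treatments. Under vehicle it was at 10.8, 8.87 and 10.1 CPM in NTC and 14.4, 11.7 and 12.6 CPM in the knockdown (log2 change 0.38 ± 0.12, adjusted p = 0.0167). Under DHT with enzalutamide it went from 13.2, 11.1 and 10.2 to 13.9, 14.9 and 14.7 CPM (0.33 ± 0.11, 0.0307). In both cases the groups did not overlap. Under DHT the values were 9.49, 7.88 and 8.67 against 9.23, 11.4 and 11.5 CPM (0.30 ± 0.12, 0.0465), and knockdown library 1 lay among the NTC libraries. The vehicle call of RELB was lost without NTC library 2 (adjusted p = 0.0754) or knockdown library 1 (0.0781). The DHT call was lost without NTC library 2 or 3 or knockdown library 2 or 3 (0.102 to 0.180) and with 4 other settings (0.0518 to 0.0719). The enzalutamide call was lost without NTC library 2 or 3 or knockdown library 2 or 3 (0.0792 to 0.141).

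BCL3, an IκB-like protein that acts in the nucleus as a cofactor of the NFKB1 and NFKB2 products, rose in the knockdown under DHT. It was at 6.26, 7.71 and 8.50 CPM in NTC and at 8.71, 11.9 and 10.7 CPM in the knockdown, with no overlap (log2 change 0.48 ± 0.12, adjusted p = 0.00442), and this call held in all 13 alternatives. Under vehicle (0.24 ± 0.13, adjusted p = 0.154) and under DHT with enzalutamide (0.22 ± 0.12, 0.188) it was not called.

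Among the brakes NFKBIA, NFKBIE and TNFAIP3, the last had the largest change under each of the 3 treatments. TNFAIP3 encodes a ubiquitin-editing enzyme that shuts off signalling from the receptors to IKK. Under vehicle it was at 15.2, 13.9 and 15.9 CPM in NTC and 18.4, 21.3 and 24.1 CPM in the knockdown (log2 change 0.51 ± 0.10, adjusted p = 0.000911). Under DHT it was at 16.2, 17.2 and 17.9 against 20.6, 22.3 and 25.6 CPM (0.42 ± 0.10, 0.00271). Under DHT with enzalutamide it was at 18, 15.6 and 15.8 against 21.2, 23.0 and 24.8 CPM (0.48 ± 0.10, 0.00132). The groups did not overlap in any of the 3, and each call held in all 13 alternatives.

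NFKBIA, whose protein holds RELA-containing dimers in the cytoplasm, rose under all 3 treatments. Under vehicle it was at 101, 91.0 and 97.0 CPM in NTC and 117, 105 and 121 CPM in the knockdown (log2 change 0.25 ± 0.08, adjusted p = 0.0206). Under DHT it was at 95.6, 88.6 and 99.4 against 131, 110 and 131 CPM (0.39 ± 0.08, 0.00068), a call that held in all 13 alternatives. Under DHT with enzalutamide it was at 111, 99.2 and 101 against 129, 111 and 123 CPM (0.22 ± 0.08, 0.0362), where knockdown library 2 and NTC library 1 overlapped. The vehicle call of NFKBIA was lost without NTC library 2 or knockdown library 1 or 3 (adjusted p = 0.0504 to 0.0849) and with limma (0.0531). The enzalutamide call was lost without NTC library 2 or 3 or knockdown library 1 or 3 (0.0978 to 0.124), without all libraries numbered 1 (0.0672) and with limma (0.0908).

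NFKBIE, the gene of IκBε, rose in the knockdown under DHT, from 12.4, 10.9 and 10.6 CPM to 12.5, 15.4 and 13.2 CPM. The knockdown libraries lay above the NTC libraries by a small margin (log2 change 0.28 ± 0.09, adjusted p = 0.017). The call was lost without NTC library 2 or 3 or knockdown library 2 (0.0620 to 0.0962), or with only these groups in the fit (0.0656). NFKBIE was not called under vehicle (0.21 ± 0.09, adjusted p = 0.0759) or under DHT with enzalutamide (0.22 ± 0.09, 0.0593), and with the replicate block the enzalutamide difference of NFKBIE passed (adjusted p = 0.0445). It also passed with limma (0.0493) and without all libraries numbered 1 (0.0441).

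BIRC2 and BIRC3 encode the ubiquitin ligases cIAP1 and cIAP2, which act in tumour necrosis factor receptor complexes and hold MAP3K14 at low levels. They are paralogs, so reads from shared stretches could have been divided between them. BIRC2 rose under vehicle, from 72.7, 75.3 and 68.9 to 81.3, 86.0 and 85.7 CPM (log2 change 0.22 ± 0.05, adjusted p = 0.00174), and under DHT with enzalutamide, from 74.8, 74.9 and 77.9 to 82.0, 82.7 and 88.9 CPM (0.16 ± 0.05, 0.0185). Neither pair of groups overlapped. Under DHT it was not called (0.08 ± 0.05, adjusted p = 0.199). The vehicle call of BIRC2 held in all 13 alternatives, and the enzalutamide call was lost without knockdown library 3 (0.101) and with limma (0.0673).

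BIRC3 rose under vehicle, from 81.3, 66.4 and 65.4 to 97.8, 84.3 and 91.6 CPM (log2 change 0.36 ± 0.12, adjusted p = 0.0245), and under DHT, from 62.3, 61.4 and 59.6 to 77.0, 68.7 and 87.8 CPM (0.35 ± 0.12, 0.0247). Neither pair overlapped. Under DHT with enzalutamide NTC library 1 was high at 103 CPM, beside 72.7 and 77.6 CPM in the other NTC libraries and 109, 91.6 and 105 CPM in the knockdown. That difference was not called (0.27 ± 0.12, adjusted p = 0.0899). It passed with the replicate block (0.00979) and without NTC library 1 (0.00459) or all libraries numbered 1 (0.00642). The vehicle call of BIRC3 was lost without NTC library 2 or 3 or knockdown library 1 or 3 (0.0561 to 0.0939). The DHT call was lost without any single NTC library or without knockdown library 3 (0.0563 to 0.156) and with limma (0.0697).

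**Figure D2:**
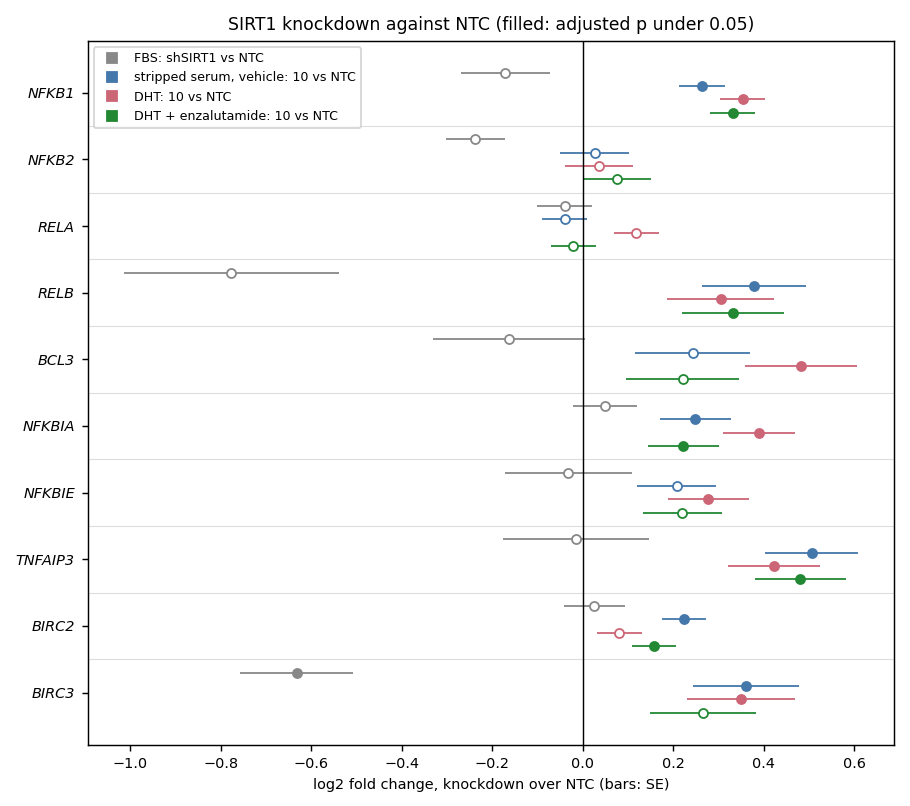
Log2 fold change of SIRT1 knockdown over NTC (horizontal axis) for each of the 10 genes (rows) in FBS and in the 3 stripped-serum treatments, with SE bars and filled points for an adjusted p under 0.05. NFKB1 and TNFAIP3 are filled in all 3 stripped-serum comparisons, and the FBS points of RELB (-0.78) and BIRC3 (-0.63) lie on the other side of 0.

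Leaving out single libraries moved these counts. The number of the 10 genes called fell from 6 to 3 without vehicle NTC library 2 or knockdown library 1. It fell from 7 to 4 under DHT without NTC library 2 or 3, and from 5 to 3 under DHT with enzalutamide without NTC library 2 or 3 and to 2 without knockdown library 3. Without all libraries numbered 1, the counts were 6, 7 and 6, and with the replicate block 6, 8 and 7. The shares of all genes called in these settings are not given here, so nothing particular to the 10 genes is read from the counts.

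In FBS, 1 of the 10 genes, BIRC3, was called between shSIRT1 and NTC, and it fell, where 2.21% of 14329 genes were called lower and 0.509% higher (2.71% in all). BIRC3 was at 13.6, 11.7 and 12.7 CPM in NTC and 7.13, 8.52 and 8.91 CPM in shSIRT1, with no overlap (log2 change -0.63 ± 0.13, adjusted p = 0.0333). RELB was at 2.17, 2.54 and 2.91 CPM in NTC and 1.38, 1.77 and 1.27 CPM in shSIRT1, also with no overlap, but its difference of -0.78 ± 0.24 did not pass the test (adjusted p = 0.13; 0.0409 with all 24 libraries fitted). NFKB2 was at 53.0, 53.7 and 53.9 against 45.2, 42.9 and 48.2 CPM (-0.24 ± 0.06, adjusted p = 0.0959), and the groups did not overlap. NFKB2 passed with the replicate block (0.022), which called 2 of the 10 genes and also more of all genes, as given in the last section. The summed luminal markers stood at 3727 to 3864 TPM in NTC and 3373 to 3440 TPM in shSIRT1, and their part in these differences was not tested.

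NFKBIA, TNFAIP3 and NFKB1, which rose in stripped serum, were not called in FBS. NFKBIA was at 62.1, 58.2 and 53.0 CPM in NTC and 58.6, 60.8 and 60.0 CPM in shSIRT1 (0.05 ± 0.07, adjusted p = 0.78). TNFAIP3 was at 4.42, 4.87 and 4.40 against 4.70, 3.94 and 4.92 CPM (-0.02 ± 0.16, 0.977). NFKB1 was at 71.5, 71.5 and 55.4 CPM in NTC and 61.0, 58.1 and 57.2 CPM in shSIRT1 (-0.17 ± 0.10, 0.417), where NTC library 3 was the lowest of the 6. Without the libraries numbered 3, 3 of the 10 genes were called lower: NFKB1 (-0.27, adjusted p = 0.000656), NFKB2 (-0.28, 0.00141) and BIRC3 (-0.69, 0.000678). That setting keeps libraries 1 and 2, which lay close together (1.55 and 1.60 chi-square per gene). Its p-values measure only that small spread, which may be technical. Many more of all genes were called in it too, as given in the last section. Without NTC library 3 alone, NFKB1 was called too (-0.28, 0.0293). The BIRC3 call was lost without NTC or shSIRT1 library 1 or 2 (0.0862 to 0.159), with libraries 1 and 2 summed (0.250) and with limma (0.0694).

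The knockdown changes in stripped serum with vehicle and in FBS were compared directly in a fit of those 12 libraries. The change was higher in stripped serum for 4 of the 10 genes and lower for none, where 7.47% of 15345 genes were called higher and 6.29% lower (13.8% in all). The difference of log2 changes was 1.196 ± 0.25 for RELB (adjusted p = 0.00542), 1.04 ± 0.16 for BIRC3 (0.000799), 0.48 ± 0.11 for NFKB1 (0.0126) and 0.31 ± 0.09 for NFKB2 (0.0314). For TNFAIP3 it was 0.56 ± 0.19 and did not pass (0.0601). The NFKB2 call was lost without 9 of the 12 libraries in turn: each NTC library and shSIRT1 libraries 1 and 2 in FBS, and NTC libraries 2 and 3 and knockdown libraries 1 and 3 under vehicle (0.0555 to 0.115). With the replicate block 7 of the 10 genes were called, adding NFKBIA (0.0273), TNFAIP3 (0.0337) and BIRC2 (0.0324). More of all genes were called with the block too, as given in the last section. The difference also passed for TNFAIP3 without vehicle knockdown library 1 (0.0224), for BIRC2 without FBS NTC library 1 (0.0448) and for BCL3 without FBS NTC library 3 (0.0408), and that of NFKB1 was lost with limma (0.0545). The loss of SIRT1 itself was smaller in stripped serum, with a log2 change of -1.55 ± 0.09 beside -2.24 ± 0.09 in FBS in the separate fits of the sets. In the fit of 12 libraries the difference was 0.73 ± 0.12 (edgeR adjusted p = 0.00156), so it is not exactly the gap between those values. The sets differ in serum, in the label of the knockdown, in processing and in sequencing depth, and these cannot be told apart.

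In control cells, DHT was followed by a change of 1 of the 10 genes, NFKB2, which rose, beside 17.4% of all genes called higher and 12.5% lower (29.9% in all). NFKB2 went from 74.3, 64.7 and 66.9 CPM to 84.6, 77.5 and 77.0 CPM, with no overlap (log2 change 0.22 ± 0.08, adjusted p = 0.0375). The call was lost without vehicle library 2 or 3 or without any single DHT library (0.0563 to 0.167). BCL3, at 6.22, 5.69 and 6.07 CPM under vehicle and 6.26, 7.71 and 8.50 CPM under DHT, was not called (0.32 ± 0.13, adjusted p = 0.0677). BCL3 passed with the replicate block (0.0213), without DHT library 1 (0.0223) and without all libraries numbered 1 (0.01).

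In knockdown 10, DHT was followed by 3 higher and 1 lower calls among the 10 genes, beside 22.2% of all genes called, 13.3% higher and 8.92% lower. BCL3 rose from 6.73, 7.27 and 7.29 to 8.71, 11.9 and 10.7 CPM (log2 change 0.56 ± 0.12, adjusted p = 0.00325), and RELA rose from 59.5, 58.6 and 59.1 to 71.1, 68.1 and 65.5 CPM (0.21 ± 0.05, 0.00607). BIRC2 fell from 81.3, 86.0 and 85.7 to 68.6, 72.9 and 73.7 CPM (-0.23 ± 0.05, 0.00212). None of these pairs of groups overlapped, and the BCL3 and BIRC2 calls held in all 13 alternatives. NFKB2 rose from 71.1, 69.7 and 68.8 to 80.8, 87.2 and 77.3 CPM (0.23 ± 0.08, 0.0383). The NFKB2 call was lost without any single library of either group (0.0501 to 0.148), with another scaling (0.054), with limma (0.0561) and with only these groups in the fit (0.0888). The RELA call was lost without DHT library 1 (0.0609), without all libraries numbered 1 (0.0883), with limma (0.0804) and with only these groups in the fit (0.0941). Without DHT library 1, 2 of the 10 genes were called.

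Enzalutamide with DHT, set against DHT alone, was followed by higher RELB, BIRC2 and BIRC3 in both cell lines and no lower call among the 10 genes. In NTC 12.6% of all genes were called higher and 16.6% lower (29.2% in all), and in the knockdown 8.08% and 12.2% (20.3%). The calls were 3 of the 10 genes in each line. In NTC that share is near the share of all genes called, and nothing particular to the 10 genes is read from it. In the knockdown it is above the share of all genes, and that difference was not tested. BIRC3 went from 62.3, 61.4 and 59.6 to 103, 72.7 and 77.6 CPM in NTC (log2 change 0.47 ± 0.12, adjusted p = 0.00599) and from 77.0, 68.7 and 87.8 to 109, 91.6 and 105 CPM in the knockdown (0.39 ± 0.12, 0.0268). RELB went from 9.49, 7.88 and 8.67 to 13.2, 11.1 and 10.2 CPM in NTC (0.41 ± 0.12, 0.0131) and from 9.23, 11.4 and 11.5 to 13.9, 14.9 and 14.7 CPM in the knockdown (0.44 ± 0.12, 0.0118). BIRC2 went from 67.3, 68.3 and 68.0 to 74.8, 74.9 and 77.9 CPM in NTC (0.16 ± 0.05, 0.0192) and from 68.6, 72.9 and 73.7 to 82.0, 82.7 and 88.9 CPM in the knockdown (0.24 ± 0.05, 0.00218). The groups did not overlap in any of these 6.

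In NTC the BIRC2 call was lost without DHT library 1 or enzalutamide library 3 (0.0621 and 0.0760), without all libraries numbered 1 (0.0704) and with limma (0.118), and the RELB call without DHT library 2 or enzalutamide library 1 (0.0586 and 0.0839). In the knockdown the BIRC3 call was lost without DHT library 1 or 2 or enzalutamide library 1 or 3 (0.0640 to 0.0893), and the RELB call without DHT library 1 (0.0579). With the replicate block 5 of the 10 genes were called in each line. In the knockdown more of all genes were called with the block as well, as given in the last section. Nothing particular to the 10 genes is read from these counts. NFKB2 (-0.15, 0.0445) and NFKBIA (0.13, 0.0249) were added in NTC, and RELA (-0.14, 0.0252) and BCL3 (-0.35, 0.0113) in the knockdown. Without all libraries numbered 1, NFKB2 was called in NTC (-0.21, 0.0291) and BCL3 in the knockdown (-0.40, 0.0248). The same genes passed without NTC enzalutamide library 1 alone (NFKB2, 0.013) or knockdown DHT library 1 alone (BCL3, 0.0212).

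**Figure D3:**
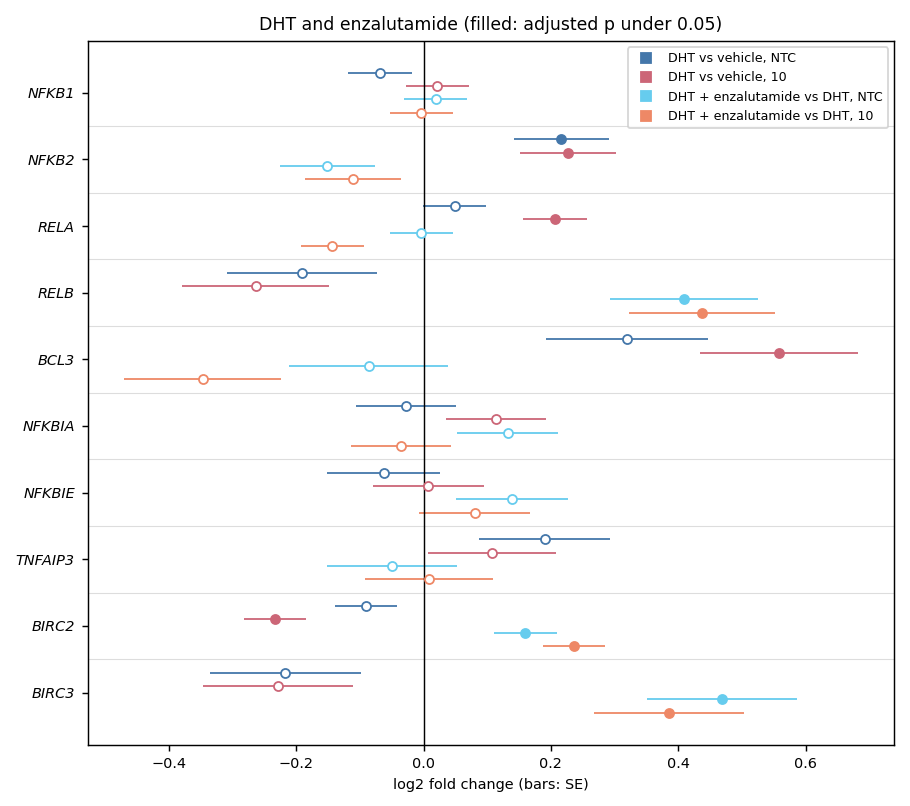
Log2 fold change (horizontal axis) of the 10 genes (rows) for DHT against vehicle and for DHT with enzalutamide against DHT, in NTC and in knockdown 10, with SE bars and filled points for an adjusted p under 0.05. RELB, BIRC2 and BIRC3 are filled and right of 0 for enzalutamide in both lines. The DHT libraries enter both kinds of comparison.

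The DHT and the enzalutamide comparisons share the DHT libraries, so a low value there moves both. Set against vehicle, cells with DHT and enzalutamide had no gene called among the 10 in either line with edgeR, DESeq2 or limma. At an unadjusted p under 0.05 there was 1 in NTC, BIRC3 (0.25 ± 0.12, unadjusted p = 0.0474), and 0 in the knockdown. Over all genes, 0% were called in NTC and 0.00687% in the knockdown, which is 1 gene.

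No difference between the lines in their response to DHT or to enzalutamide was called for any of the 10 genes with edgeR, DESeq2 or limma. Over all genes, 0.0412% were called with a higher and 0.158% with a lower DHT response in the knockdown (0.199% in all), and 0.268% and 0.0824% for enzalutamide (0.350%). At an unadjusted p under 0.05, RELA had a larger DHT response in the knockdown (difference 0.16 ± 0.07, unadjusted p = 0.0382, adjusted p = 0.412), and no gene reached that for enzalutamide. The differences ranged from -0.14 for BIRC2 to 0.24 for BCL3 under DHT, and from -0.26 for BCL3 to 0.08 for BIRC2 under enzalutamide. The calls of BCL3 and BIRC2 under DHT in the knockdown and not in NTC are therefore not shown to differ between the lines.

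In the order of the 6 stripped-serum groups by mean CPM, NFKB1 had its NTC groups below its knockdown groups with a gap between them, and TNFAIP3 did as well. Neighbouring groups overlapped within each line. For NFKBIA, NFKBIE, RELB and NFKB2 every neighbouring pair in the order overlapped. RELA was highest in the knockdown under DHT, apart from the next group, and BCL3 was lowest in NTC under vehicle and 1.74 times as high in the knockdown under DHT. BIRC2 and BIRC3 were lowest in NTC under DHT, both apart from the next group, and highest in the knockdown under DHT with enzalutamide.

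The wider NF-κB pathway was read from 5 lists of 102 other genes: REL with other inhibitors, the IKK complex with its adaptors, receptors, ligands and other targets. In stripped serum 81 of them passed the filter. In knockdown 10 against NTC, 31 were called higher and 13 lower under vehicle, 31 and 11 under DHT, and 27 and 11 under DHT with enzalutamide. That is 54.3%, 51.9% and 46.9% of the lists, beside 34.6%, 43.0% and 34.6% of all genes. The list medians of the log2 change were 0.10, 0.09 and 0.12, beside -0.00448, -0.00161 and 0.00187 over all genes. In FBS 72 passed the filter, and 0 were called higher and 2 lower (2.78%, near the 2.71% of all genes), IRAK1 (-0.28 ± 0.06, adjusted p = 0.0349) and TNFAIP8 (-0.57 ± 0.10, 0.0156).

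Among REL and the other inhibitors, 6 of 12 rose and 0 fell under vehicle, 6 rose and 1 fell under DHT, and 4 rose and 0 fell under DHT with enzalutamide. TAX1BP1, an adaptor of the TNFAIP3 enzyme, went from 386 ± 7.07 to 559 ± 19.1 CPM under vehicle (SD, n = 3; log2 change 0.53 ± 0.05, edgeR adjusted p = 1.2e-06). RNF11, another partner in that complex, went from 287 ± 14.7 to 363 ± 18.6 CPM (0.34 ± 0.05, edgeR adjusted p = 0.000102). CYLD, a deubiquitinase that opposes IKK activation, went from 80.7 ± 2.87 to 104 ± 4.15 CPM (0.37 ± 0.05, edgeR adjusted p = 4.96e-05). These 3 were also called higher under the other treatments. FAM105B, the deubiquitinase also called OTULIN, fell under DHT (-0.25 ± 0.06, adjusted p = 0.00394).

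The IKK complex and its adaptors went both ways, with 11 of 25 higher and 6 lower under vehicle, 9 and 5 under DHT, and 8 and 4 under DHT with enzalutamide. Under vehicle the non-canonical kinase gene MAP3K14 rose (0.43 ± 0.10, adjusted p = 0.00202), as did TRADD, an adaptor of the tumour necrosis factor receptor (0.48 ± 0.10, 0.00175). The kinase gene IKBKE (-0.44 ± 0.09, 0.000711) and the adaptor gene TRAF5 (-1.25 ± 0.29, 0.00251) fell. TRAF5 was low, at 3.62 ± 1.16 CPM in NTC and 1.52 ± 0.39 CPM in the knockdown.

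Of 14 receptors tested, 3 rose and 1 fell under vehicle, 5 and 2 under DHT, and 4 and 1 under DHT with enzalutamide. The death receptor gene TNFRSF21 was at 56.9 ± 2.76 and 88.6 ± 2.85 CPM under vehicle (0.64 ± 0.08, edgeR adjusted p = 5.46e-06), and TLR3, a sensor of double-stranded RNA, rose too (0.55 ± 0.15, 0.00904). Of 12 ligands only 4 passed the filter, and 1 rose and 1 fell under vehicle, 1 and 0 under DHT, and 1 and 1 under DHT with enzalutamide (median log2 change -0.39, -0.11 and -0.52). Under vehicle TNFSF15, a cytokine of the tumour necrosis factor family, rose from 43.6 ± 1.06 to 87.9 ± 12.8 CPM (1.01 ± 0.13, edgeR adjusted p = 1.13e-05). IL1B, the gene of a cytokine that activates the pathway, was the one that fell, at 1.07 ± 0.30 and 0.58 ± 0.04 CPM under vehicle (-0.89 ± 0.30, edgeR adjusted p = 0.028). With DHT and enzalutamide it fell too (-0.97 ± 0.30, 0.0186). IL1B lies under the level set for naming and was named after its values were seen.

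Among the other targets, 10 of 26 rose under each treatment, and 5, 3 and 5 fell. Under vehicle the largest rise by the naming rule was PSMB9, an immunoproteasome subunit gene (1.501 ± 0.22, adjusted p = 4.55e-05), followed by the class I gene HLA-C (0.68 ± 0.08, 7.54e-06) and the AP-1 gene JUNB (0.68 ± 0.09, 1.89e-05). TNFAIP2 fell (-1.38 ± 0.30, 0.00172). Both PSMB9 and TNFAIP2 were low. PSMB9 was at 1.61 ± 0.19 CPM in NTC and 4.59 ± 1.08 CPM in the knockdown, and TNFAIP2 at 1.66 ± 0.22 and 0.64 ± 0.22 CPM. PSMB9 and HLA-C are also known as interferon-responsive genes.

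**Figure D4:**
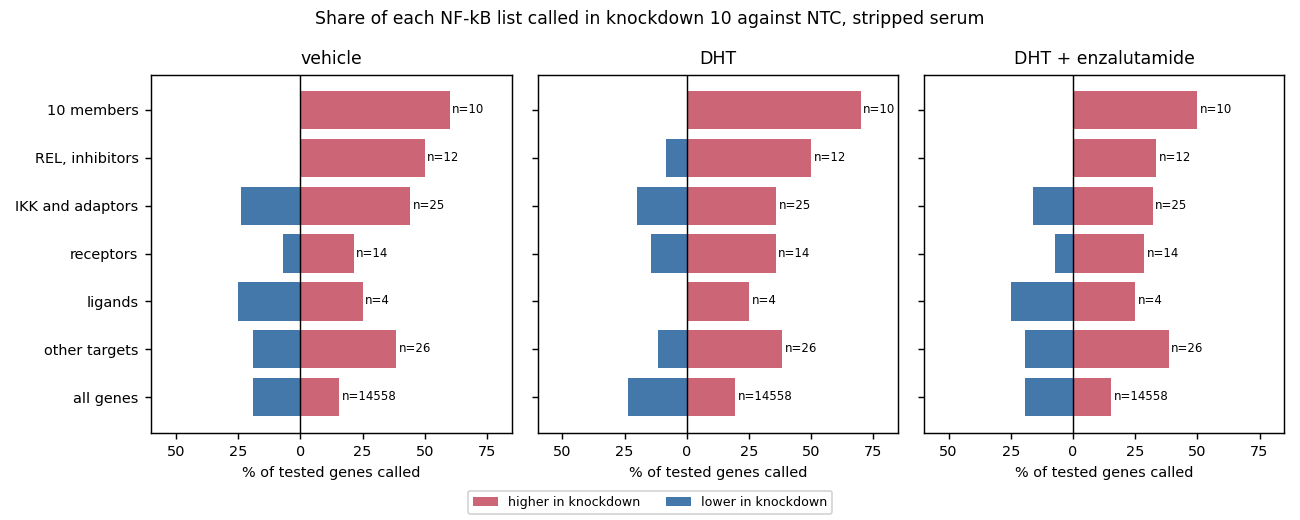
Share of tested genes called higher (right, red) or lower (left, blue) in knockdown 10 against NTC in stripped serum, in percent (horizontal axis), for the 10 genes, for each of the 5 pathway lists and for all genes, with n the number tested. The 10 genes have no blue bar, and the IKK list has bars on both sides in each panel.

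Under DHT, MAP3K14 rose in NTC (0.50 ± 0.10, adjusted p = 0.000775) and in the knockdown (0.39 ± 0.09, 0.00588), and with enzalutamide it fell against DHT in both (-0.64 ± 0.10 and -0.56 ± 0.10, adjusted p = 6.99e-05 and 0.000399). BIRC2 and BIRC3, whose proteins hold MAP3K14 at low levels, were higher with enzalutamide, as given above. The adaptor gene TRAF2 went with MAP3K14 in NTC. It rose with DHT (0.35 ± 0.06, edgeR adjusted p = 0.000163) and fell with enzalutamide (-0.37 ± 0.06, edgeR adjusted p = 0.000108). A link between these RNA changes was not tested. REL, the remaining subunit gene, was at 5.88 ± 0.31 CPM with DHT and 7.42 ± 0.21 CPM with DHT and enzalutamide in NTC (0.34 ± 0.08, edgeR adjusted p = 0.00405). In the knockdown it was at 6.96 ± 0.17 and 8.67 ± 0.37 CPM (0.32 ± 0.08, edgeR adjusted p = 0.00886). Over the 5 lists, DHT was followed by 10 higher and 9 lower calls of 81 in NTC and 9 and 11 in the knockdown. These are 23.5% and 24.7% of the lists, beside 29.9% and 22.2% of all genes. Enzalutamide was followed by 11 and 9 calls in NTC (24.7%, beside 29.2%) and by 13 and 10 in the knockdown (28.4%, beside 20.3%), and nothing particular to the lists is read from these shares.

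The genes whose log2 CPM ran most like those of the family over the 18 stripped-serum libraries were read among 12051 genes. These correlations are descriptions, since the libraries share 6 groups and 2 lines. NFKB1 ran closest to MYO5B (Pearson r = 0.987) and ATP8A1 (0.978), and TNFAIP3 to DDX60 (0.952) and TLR3 (0.948). NFKBIA ran closest to RSPH3 (0.938), BIRC2 to SPPL2A (0.944), BIRC3 to PYROXD1 (0.936) and RELB to ADM2 (0.915). NFKBIE ran closest to ZNF524 (0.894), NFKB2 to SLC7A1 (0.890) and RELA to XYLT2 (0.868), with LTBR, the lymphotoxin receptor gene, next for RELA (0.857). Within the 10 genes the closest pairs were NFKB1 with TNFAIP3 (0.894) and RELB with BIRC3 (0.890). By Spearman rank correlation, NFKB2, RELB and TNFAIP3 kept the same closest gene among the 12051. NFKB1, RELA, NFKBIA, NFKBIE, BIRC2 and BIRC3 had another gene closest.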

How the data were processed

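RNA from 24 LNCaP libraries was sequenced after TRIzol extraction and stranded library preparation from about 500 ng RNA, per the labels' protocols. The submitters' processing notes name CASAVA 1.8.2, RSEM 1.2.31 and hg19, and the aligner is not given in the sources used here. The deposited files hold 3 values per gene from RSEM: expected count, TPM and FPKM. The deposited expected counts were rounded and tested, the authors' TPM served for levels between genes, markers and the limma alternative, and the deposited FPKM entered no test. RSEM took 50 bases off each transcript in FBS and 224 to 252 in CSS, so the sets were fitted apart. The exceptions were the joint fit of 12 libraries and the alternative with all 24 libraries.

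Genes were kept with filterByExpr by group, scaled with TMM and tested with the quasi-likelihood F test of edgeR 4.0.16 (two-sided, R 4.3.3), with Benjamini-Hochberg adjustment over all genes of a comparison. There were 14329 genes and 6 libraries in FBS, 14558 and 18 in CSS, and 15345 and 12 in the joint fit. CPM was computed from the counts with TMM scaling. The 13 comparisons were not adjusted for each other. Alternatives were DESeq2 1.42.0, RLE scaling, no filter, limma 3.58.1 on log2(TPM + 1), a replicate block, other sets of libraries and leaving out each library. Leaving out the libraries numbered 3 (FBS) or 1 (CSS) was chosen after seeing the data. The steps were tested on simulated data.

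Same-numbered libraries deviated together in 9 of 10 comparisons of 2 groups (lowest correlation 0.116 to 0.321 in these), where every pair exceeded 0.1. The exception was DHT against vehicle in the knockdown (0.0452). The highest correlation between differently numbered libraries ran from 0.129 to 0.408. This was above a same-numbered pair in FBS, in knockdown against NTC under DHT, and in the exception. In NTC it also was for DHT with enzalutamide, against DHT and against vehicle. In the remaining comparisons it stayed below every same-numbered pair. The pairing comes from these correlations only. Named genes are the 10 genes where called, SIRT1, up to 4 called genes per list and comparison with the largest change (average log2 CPM not under 0), and the 2 most like genes of each (average log2 CPM not under 1). The most like genes of BCL3 are not reported here. The genes and lists were chosen with earlier results of these data known. Files hold no coordinates; those printed are RefSeq's.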

Additional observations from a re-analysis of the deposited data

Results flagged for a closer look

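For 4 of the 10 genes the knockdown change differed between stripped serum with vehicle and FBS by a direct test in the fit of 12 libraries. The difference of log2 changes, stripped serum minus FBS, was 0.48 for NFKB1, 0.31 for NFKB2, 1.196 for RELB and 1.04 for BIRC3. In the separate fits of the sets, RELB and BIRC3 were lower in the shSIRT1 line in FBS (-0.78, not called, and -0.63). In knockdown 10 under vehicle they were higher (0.38 and 0.36). In FBS RELB had only 31 to 37 counts per NTC library and 15 to 22 per shSIRT1 library. The label of the knockdown, the serum, the processing and the sequencing depth differ together between the sets and cannot be told apart.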

How the results depend on the processing

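Over the 13 comparisons the 10 genes gave 130 log2 differences, and none of the 34 called ones changed sign under an alternative. Of the 96 that were not called, 30 had alternatives on both sides of 0, all of them at most 0.11 in size as reported, among them RELA under vehicle (-0.06 to 0.01) and NFKBIA (-0.01 to 0.10) and TNFAIP3 (-0.10 to 0.07) in FBS. NFKB1 and TNFAIP3 in the 3 stripped-serum knockdown comparisons, BIRC2 under vehicle and NFKBIA and BCL3 under DHT were called in all 13 alternatives of each. In FBS the genes called were 389, against 244 with limma, 1676 with the replicate block, 876 with all 24 libraries fitted, 44 when libraries 1 and 2 were added up, and 3426 without the libraries numbered 3. The FBS count among the 10 genes was 1, against 0 with limma, 2 with the block, 2 with all 24 libraries, 0 with summed libraries and 3 without the libraries numbered 3. For DHT against vehicle in NTC it was 1, against 2 with the block and 2 without the libraries numbered 1. In the knockdown it was 4, against 2 with limma and 2 with only these groups, where the genes called went from 3236 to 1649; pairing did not hold there, and the block gave 5 of the 10, adding BIRC3. For enzalutamide against DHT it was 3 in both lines and 5 with the block. The genes called in the knockdown there were 2949, against 4518 with the block and 1550 with only these groups. For DHT with enzalutamide against vehicle, the genes called in NTC were 0, and 1 with only these groups. In the knockdown they were 1, against 6 with DESeq2, 2 with no filter, 0 with limma, 6 with the block and 2 without the libraries numbered 1. The difference between lines in the DHT response was called for 29 genes, against 156 with DESeq2, 7 with limma, 427 with the block and 14 without the libraries numbered 1. That for enzalutamide was called for 51, against 256, 24 and 573 with DESeq2, limma and the block. The stripped serum minus FBS difference was called for 2112 genes and 4 of the 10, against 3937 and 7 with the block. Leaving out each library in turn gave 103 to 926 genes in FBS, 5 to 90 and 16 to 176 for the differences between lines, and 0 to 2 for DHT with enzalutamide against vehicle in the knockdown. Among the 10 genes it gave 0 to 2 in FBS, 3 to 6, 4 to 7 and 2 to 7 for the knockdown under vehicle, DHT and DHT with enzalutamide, and 0 to 1 and 2 to 3 for DHT in NTC and in the knockdown. The replicate block changed no other call of the 10 genes than those given here or beside the results.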
